A study of Mus musculus with 19 samples.

Results

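The genes described here are 40 genes of the cell cycle and of DNA replication, taken as a named list from the 31053 genes of a count table of mouse liver. All 40 were found in the table by symbol. They were grouped by role into 10 genes of replication licensing and the replication fork, 5 of nucleotide supply, 4 cyclins and kinases of the G1/S transition, 7 cyclins, kinases and regulators of G2 and mitosis, 10 genes of the spindle, its checkpoint and chromosome segregation, and 4 growth-associated genes that non-dividing cells use too. To set replication against mitosis, 18 genes (the first pair of groups with *Ccne1*, *Ccne2* and *Cdk2*) were taken as replication genes and 16 (the G2/M and spindle groups without *Cks1b*) as mitosis genes.

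Livers came from male C57BL/6 mice that were 6 to 8 weeks old when the study began, strain C57BL6J in the labels. The labels define 3 groups: PBS, the vehicle (5 libraries), thioacetamide (TAA) with an AAV8 TBG eGFP vector (7 libraries), and TAA with AAV8 TBG miR34b/c, the miR-34b and miR-34c vectors together (7 libraries). TAA, a hepatotoxin that causes fibrosis, was given in rising doses over 12 weeks, the vectors were injected at week 10, and mice were sacrificed 4 weeks after the injection. The thyroxine-binding globulin (TBG) promoter restricts expression to hepatocytes, whereas the RNA was from whole liver. No vector is named in the labels of the vehicle group, so TAA and vector cannot be told apart in either comparison with it. Each library is labelled as a separate biological replicate. In whole-liver RNA, a change in the number of dividing cells cannot be told apart from a change in RNA per cell. Hepatocyte markers dominated all groups, with 8 marker genes summing to a mean of 83200 CPM (counts scaled to a common total, a scale that sets libraries of unequal depth side by side) in vehicle, 74500 in AAV-GFP-injected and 93500 in AAV-miR-34b/c-injected livers.

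Adult hepatocytes are mostly quiescent and re-enter the cycle after injury. In G1, cyclin D with CDK4 or CDK6 and then cyclin E with CDK2 inactivate the retinoblastoma proteins and release E2F factors, which drive replication genes. Genes of G2 and mitosis are driven later by the MuvB complex with B-MYB and FOXM1, which binds the cell cycle homology region (CHR) of their promoters and acts together with NF-Y at CCAAT boxes. The p53 pathway holds both sets down through the CDK inhibitor p21, and microRNAs of the miR-34 family are p53 targets known to repress cyclins and CDKs.

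Total counts ran from 2214073 to 5208405 per library, and the 40 genes together had 660 to 2133 counts in a library, at most 0.0664% of the total. Most are therefore measured by few reads, and in each comparison a gene was tested only if enough libraries had 10 counts or more. Levels below are CPM scaled by the trimmed mean of M-values (TMM), changes are log2 fold changes ± SE from edgeR's quasi-likelihood test, and a gene was called at a Benjamini-Hochberg adjusted p under 0.05 over all genes tested. The library of AAV-GFP replicate 4 stood apart: it was the highest of all 19 libraries for 10 of the 16 mitosis genes and for 4 of the 18 replication genes.

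Promoters of the replication and mitosis genes differed in their motifs. RefSeq promoters (GRCm38.p6, 250 bases before to 50 after the gene start) were given for 32 of the 40 genes and were searched on both strands for the CHR (TTTGAA), for E2F sites (TTTCGCGC, TTTGGCGC, TTTCCCGC or TTTGCCGC) and for CCAAT, the NF-Y box. A CHR stood in 69.2% of the 13 mitosis promoters, in 6.25% of the 16 replication promoters and in 17.9% of all promoters. For E2F the shares were 7.69%, 43.8% and 2.26%, and for CCAAT 92.3%, 62.5% and 37.4%. In the promoters of the 40 genes, 1 match of a motif overlapped a match of another. The 3 promoters below are shown up to the gene start because they hold the motif types of each class: *Top2a* (chr11:99024190-99024439, minus strand) has a CHR in each orientation, *Cdk1* (chr10:69352913-69353162, minus strand) CHRs and an E2F site, and *Mcm6* (chr1:128359706-128359955, minus strand) E2F sites and no CHR. Capitals mark CHR and E2F matches.
Top2a: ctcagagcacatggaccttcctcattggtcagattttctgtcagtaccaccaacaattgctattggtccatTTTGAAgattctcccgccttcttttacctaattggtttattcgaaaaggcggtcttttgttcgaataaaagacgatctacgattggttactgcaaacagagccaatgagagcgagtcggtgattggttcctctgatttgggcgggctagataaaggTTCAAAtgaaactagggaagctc
Cdk1: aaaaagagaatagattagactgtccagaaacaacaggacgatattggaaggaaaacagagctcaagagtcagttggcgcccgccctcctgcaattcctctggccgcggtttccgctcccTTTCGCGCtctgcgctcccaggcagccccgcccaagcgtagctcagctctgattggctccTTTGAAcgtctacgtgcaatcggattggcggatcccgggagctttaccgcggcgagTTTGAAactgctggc
Mcm6: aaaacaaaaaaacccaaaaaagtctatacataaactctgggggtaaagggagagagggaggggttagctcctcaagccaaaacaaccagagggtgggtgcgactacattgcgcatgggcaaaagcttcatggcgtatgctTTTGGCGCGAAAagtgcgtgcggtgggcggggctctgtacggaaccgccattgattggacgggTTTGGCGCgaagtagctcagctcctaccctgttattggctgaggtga

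After TAA and AAV-GFP, livers had more RNA than vehicle livers of the mitosis genes *Top2a* and *Birc5* and of the tubulin gene *Tubb5*, and less of *Ccne2*, the gene of cyclin E2. These 4 genes were called among 25 tested (16%), where 12.7% of all 9522 genes tested were called (7.54% higher and 5.19% lower). The same 4 genes were called without AAV-GFP replicate 4. The remaining 15 genes, 12 of them mitosis genes and 3 replication genes, had too few counts to be tested. AAV-miR-34b/c-injected livers also differed from vehicle in *Top2a*, *Birc5*, *Tubb5* and *Ccne2*, and in addition *Pcna*, *Dut*, *Cdk4* and *H2afz* were lower. In that comparison 8 of 23 tested genes were called (34.8%, with 21.9% of all 9290 genes), 3 of them higher and 5 lower. The background shares were 12.2% of all genes called higher and 9.75% called lower. Both comparisons use the same vehicle libraries, so they are not independent of each other.

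**Figure D1:**
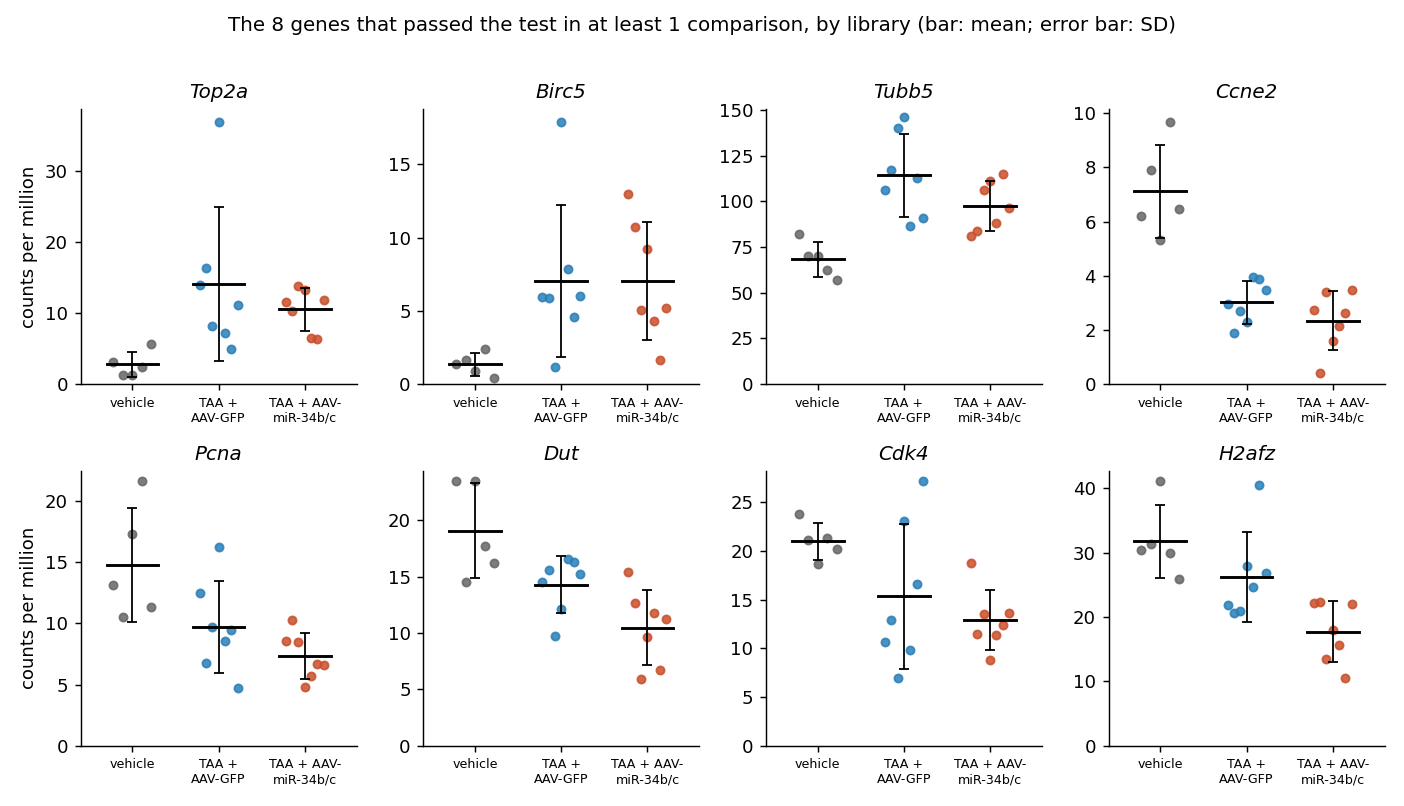
CPM of the 8 genes called in at least 1 comparison, 1 point per library, with the group mean (bar) and SD (error bar), in vehicle (n = 5), TAA + AAV-GFP (n = 7) and TAA + AAV-miR-34b/c (n = 7). *Ccne2* separates vehicle (5.32 CPM or more) from both TAA groups (3.94 CPM or less), and the AAV-GFP library at 36.9 CPM of *Top2a* is replicate 4.

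Among the genes of chromosome segregation, *Top2a* (ENSMUSG00000020914, chromosome 11, 98992943 to 99024189, minus strand, GRCm38) encodes topoisomerase II alpha, which untangles sister DNA before chromosomes separate. It was at 3.11, 1.32, 1.33, 2.42 and 5.66 CPM in vehicle replicates 1 to 5, at 4.88 to 36.9 CPM (median 11.1) after AAV-GFP and at 6.28 to 13.8 CPM (median 11.6) after AAV-miR-34b/c. All AAV-miR-34b/c libraries and 6 of 7 AAV-GFP libraries were above the highest vehicle library. The log2 fold change against vehicle was 2.36 ± 0.49 after AAV-GFP (adjusted p = 0.00499) and 1.92 ± 0.37 after AAV-miR-34b/c (adjusted p = 0.00234). Without AAV-GFP replicate 4, the former was 1.90 with an adjusted p of 0.00777. Both calls were kept in each fit that left out 1 library and in the other count models and scalings tried, while the exact permutation test, adjusted over all genes, gave 0.0981 after AAV-GFP and 0.046 after AAV-miR-34b/c.

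*Birc5* (ENSMUSG00000017716, chromosome 11, 117849251 to 117855743, plus strand) encodes survivin, a subunit of the chromosomal passenger complex and an inhibitor of apoptosis. Vehicle replicates 1 to 5 had 1.38, 1.65, 0.887, 2.42 and 0.404 CPM, which is 1 to 10 reads. After AAV-GFP it ranged from 1.16 to 17.9 CPM (median 5.94) and after AAV-miR-34b/c from 1.62 to 13.0 CPM (median 5.23). In each TAA group 6 of 7 libraries were above all vehicle libraries and 1 was inside their range. The changes were 2.29 ± 0.53 (adjusted p = 0.00945) and 2.24 ± 0.52 (adjusted p = 0.0074), and the first was 1.87 (adjusted p = 0.0187) without AAV-GFP replicate 4.

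*Cdc20*, the activator of the anaphase-promoting complex, was the third spindle gene tested against vehicle. It was at 2.85 ± 1.46 CPM in vehicle (SD, n = 5), 8.82 ± 10.2 CPM after AAV-GFP and 3.95 ± 1.68 CPM after AAV-miR-34b/c (SD, n = 7 each). AAV-GFP replicate 4 was at 30.6 CPM, and the log2 fold change against vehicle of 1.6 ± 0.67 (adjusted p = 0.116) was 0.85 without it. Leaving out AAV-GFP replicate 6, which was at 0.325 CPM, gave 1.80 with an adjusted p of 0.0322.

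The other 7 spindle genes were too low for a test against vehicle. *Mki67*, the proliferation antigen Ki-67, was at a median of 0.345 CPM in vehicle, 3.88 CPM after AAV-GFP and 3.58 CPM after AAV-miR-34b/c, with 5 of 7 AAV-miR-34b/c libraries above the highest vehicle library (2.97 CPM). Without the filter on low counts it was called in AAV-miR-34b/c against vehicle (log2 fold change 2.22 ± 0.63, adjusted p = 0.0203), but not in AAV-GFP against vehicle (2.11 ± 0.77, adjusted p = 0.0816). Vehicle replicate 2 held 9 of the 13 vehicle counts. In AAV-GFP against vehicle *Mki67* passed the filter in 5 of the fits that left out 1 library (log2 fold changes from 1.84 to 3.40). It was called in 1 of these, the fit without vehicle replicate 2 (3.40 ± 1.07, adjusted p = 0.0471). The vehicle libraries in that fit had at most 3 counts each, so *Mki67* passed the filter through AAV-GFP libraries. *Plk1*, the polo-like kinase of mitotic entry, had medians of 0.887, 1.88 and 2.39 CPM in the same order, and *Ube2c*, a ubiquitin-conjugating enzyme that acts with the anaphase-promoting complex, had 1.04, 1.61 and 1.71 CPM. For the Aurora kinases, median *Aurka* was 0.691, 1.31 and 1.13 CPM, and *Aurkb* was at 0 in 4 of 5 vehicle, 1 of 7 AAV-GFP and 5 of 7 AAV-miR-34b/c libraries. The checkpoint kinase genes *Bub1* and *Bub1b* had 5 and 28 counts in all 19 libraries together, and 15 of those of *Bub1b* were in AAV-GFP replicate 4.

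Of the G2/M genes, *Cdk1* and *Cks1b* were tested. *Cdk1*, the kinase that drives mitosis, was at 3.45, 2.97, 3.1, 5.57 and 3.23 CPM in vehicle replicates 1 to 5. It ranged from 1.95 to 16.4 CPM (median 7.26) after AAV-GFP and from 0.811 to 10.7 CPM (median 4.40) after AAV-miR-34b/c, so both TAA groups reached above and below the vehicle range. The log2 fold changes against vehicle, 1.20 ± 0.44 (adjusted p = 0.0755) and 0.37 ± 0.52 (adjusted p = 0.643), did not pass the test, although without AAV-GFP replicate 6 the first was 1.38 with an adjusted p of 0.0177. *Cks1b*, a small CDK-binding subunit, was level, at 12.5 ± 4.43, 12.7 ± 4.14 and 13.0 ± 4.05 CPM (SD, n = 5, 7 and 7).

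The mitotic cyclins were sparse. *Ccnb2* (cyclin B2) had 3 counts in all vehicle libraries, 62 in AAV-GFP and 20 in AAV-miR-34b/c libraries, *Ccnb1* (cyclin B1) 7, 51 and 21, and *Ccna2* (cyclin A2) 6, 31 and 22. In AAV-GFP livers 6 of 7 libraries were above all vehicle libraries for *Ccnb2*, 4 of 7 for *Ccnb1* and 5 of 7 for *Ccna2*, and in AAV-miR-34b/c livers 4, 5 and 2 of 7. AAV-GFP replicate 4 held 24 of the 51 AAV-GFP counts of *Ccnb1*. *Foxm1*, the transcription factor that activates such genes, had no count in the 5 vehicle libraries, 34 counts in AAV-GFP and 9 in AAV-miR-34b/c libraries. With 3 counts over the vehicle group taken as a floor, pooled *Foxm1* counts per total counts were 7.44-fold that floor after AAV-GFP. After AAV-miR-34b/c they were 1.83-fold that floor. The floor covers counting error in vehicle only, not that of the TAA counts, so these ratios are not lower limits of the change. Those ratios were 4.61-fold without AAV-GFP replicate 2, which held 16 of the 34 counts, and 1.19-fold and 1.15-fold without AAV-miR-34b/c replicate 1 or 7, with 4 counts each. Without the filter on low counts, *Ccnb2* (adjusted p = 0.012) and *Foxm1* (adjusted p = 0.0129) were called in AAV-GFP against vehicle. *Cks2*, the paralogue of *Cks1b*, was at 2.26 ± 2.32, 1.94 ± 1.30 and 2.26 ± 1.90 CPM.

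**Figure D2:**
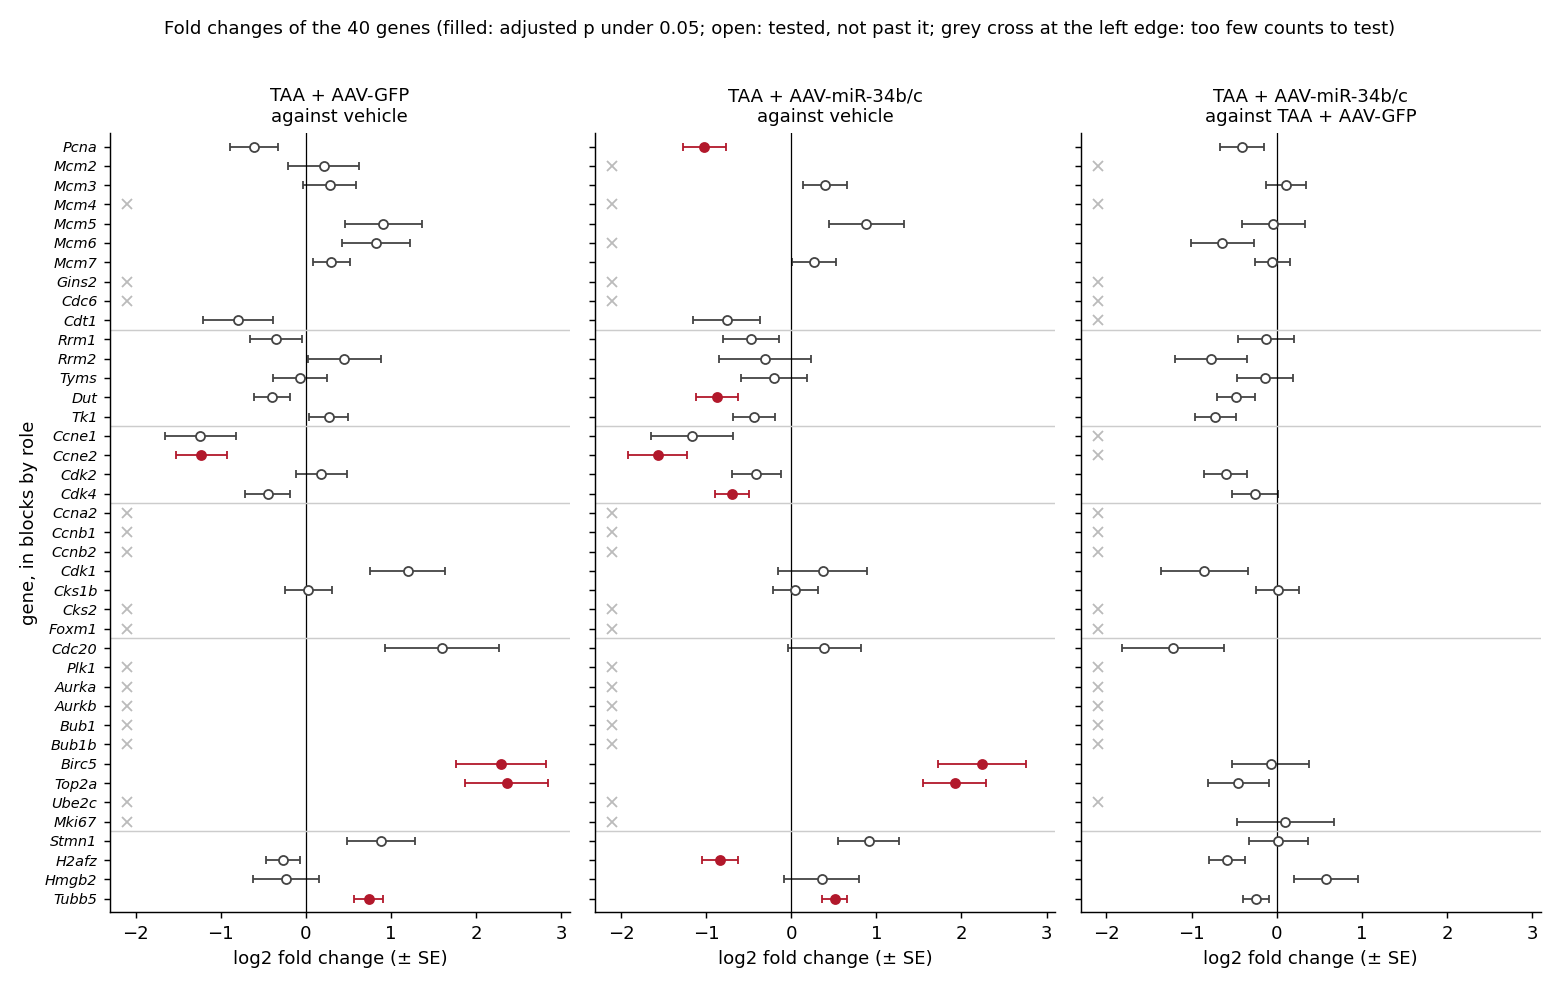
Log2 fold change ± SE of the 40 genes (rows, in blocks by role) in the 3 comparisons (panels). Filled points passed the test, open points did not, and grey crosses at the left edge mark genes with too few counts. The 4 called genes of the first panel and the 8 of the second are filled, and no point is filled in the third.

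The replication and mitosis genes were set side by side, and the difference between the sets was not tested. Of 15 replication genes tested in AAV-GFP against vehicle, 8 had a positive and 7 a negative log2 fold change (median 0.18, and -0.00 without AAV-GFP replicate 4), and *Ccne2* alone was called. Of 13 tested in AAV-miR-34b/c against vehicle, 10 were negative (median -0.44), and *Ccne2*, *Dut* and *Pcna* were called, all lower. Of the mitosis genes, 4 were tested in each comparison and *Birc5* and *Top2a* were called. At most 3 of 5 vehicle libraries had 10 counts of any of these 4 genes, which passed the filter through the TAA libraries, so no median over them is set beside that of the replication genes. Without the filter on low counts, 15 of 16 mitosis genes had a positive log2 fold change against vehicle in each TAA group, and 4 and 3 of them were called higher, where 5.14% of 16425 and 6.76% of 16259 genes were. In the same fits 11 of 18 replication genes were positive after AAV-GFP (median 0.21) and 7 of 18 after AAV-miR-34b/c (median -0.36), and none was called higher.

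*Pcna* (ENSMUSG00000027342, chromosome 2, 132249162 to 132253314, minus strand), the sliding clamp of the DNA polymerases, was at 13.1, 10.5, 17.3, 21.6 and 11.3 CPM in vehicle replicates 1 to 5, at 4.74 to 16.2 CPM (median 9.43) after AAV-GFP and at 4.80 to 10.3 CPM (median 6.69) after AAV-miR-34b/c. All 7 AAV-miR-34b/c libraries lay below the lowest vehicle library. Its log2 fold change against vehicle was -1.02 ± 0.25 (adjusted p = 0.0104) after AAV-miR-34b/c and -0.61 ± 0.28 (adjusted p = 0.152) after AAV-GFP. An exact two-sided permutation test of log2 CPM gave p = 0.00126 for the former, the smallest that the 792 splits into 5 and 7 libraries can give (adjusted over all genes, 0.046). That test takes every library as independent. When libraries of a group that were close to each other were summed, *Pcna* was not called by edgeR (-0.98, adjusted p = 0.0794).

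None of the genes *Mcm2* to *Mcm7*, which encode the replicative helicase, was called. *Mcm7* had the most reads of them, at 20.4 ± 7.03 CPM in vehicle, 25.1 ± 4.51 after AAV-GFP and 24.5 ± 7.15 after AAV-miR-34b/c (SD, n = 5, 7 and 7). Against vehicle its log2 fold changes were 0.30 ± 0.22 and 0.27 ± 0.26, and those of *Mcm3* 0.28 ± 0.31 and 0.40 ± 0.26. *Mcm5* was at 2.19 ± 1.24, 4.26 ± 2.13 and 4.25 ± 2.16 CPM, with changes of 0.91 ± 0.45 (adjusted p = 0.178) and 0.88 ± 0.44 (adjusted p = 0.155). *Mcm6* had a change of 0.82 ± 0.40 after AAV-GFP (adjusted p = 0.176) and *Mcm2* one of 0.21 ± 0.42 (adjusted p = 0.774), while *Mcm4* was untested at 1.39, 1.63 and 2.39 CPM on average. Without AAV-GFP replicate 4 the changes after AAV-GFP were -0.00 for *Mcm2*, 0.07 for *Mcm3*, 0.67 for *Mcm5*, 0.57 for *Mcm6* and 0.23 for *Mcm7*. Of the factors that load the helicase, *Cdt1* was at 5.94 ± 1.93 CPM in vehicle, 3.38 ± 2.43 after AAV-GFP and 3.52 ± 2.03 after AAV-miR-34b/c, with changes of -0.80 ± 0.41 (adjusted p = 0.202) and -0.76 ± 0.39 (adjusted p = 0.171), and *Cdc6* had 19 counts in all libraries. *Gins2*, a subunit of the active helicase, had 5, 35 and 11 counts in the 3 groups.

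In nucleotide supply, *Dut* (ENSMUSG00000027203, chromosome 2, 125247190 to 125258608, plus strand), whose enzyme removes dUTP, was at 23.5, 14.5, 23.5, 17.7 and 16.2 CPM in vehicle replicates 1 to 5, 9.70 to 16.6 CPM (median 15.2) after AAV-GFP and 5.92 to 15.4 CPM (median 11.2) after AAV-miR-34b/c. Here 6 of 7 AAV-miR-34b/c libraries were below all vehicle libraries. Its log2 fold change after AAV-miR-34b/c was -0.87 ± 0.25 (adjusted p = 0.0207), and -0.78 (adjusted p = 0.0619) without vehicle replicate 1. The other 4 genes were not called against vehicle by edgeR. *Tk1*, thymidine kinase, was at 24.3 ± 6.40, 29.5 ± 9.45 and 18.1 ± 5.59 CPM, *Tyms*, thymidylate synthase, at 5.84 ± 2.30, 5.58 ± 1.62 and 5.11 ± 2.79 CPM. The ribonucleotide reductase genes were at 11.6 ± 3.73, 8.99 ± 3.97 and 8.50 ± 4.78 CPM for *Rrm1* and at 4.16 ± 2.64, 5.54 ± 2.11 and 3.41 ± 2.34 CPM for *Rrm2*. Leaving out AAV-miR-34b/c replicate 2, at 18.7 CPM, gave *Rrm1* a change of -0.77 with an adjusted p of 0.0438. With limma-voom, *Rrm1* (-0.87, adjusted p = 0.0128) and *Tk1* (-0.60, adjusted p = 0.0436) were called lower after AAV-miR-34b/c.

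Of the cyclin E genes of the G1/S transition, *Ccne2* was called and *Ccne1* was not, and the difference between them was not tested. *Ccne2* (ENSMUSG00000028212, chromosome 4, 11191351 to 11204779, plus strand) was at 6.22, 7.91, 5.32, 9.69 and 6.46 CPM in vehicle replicates 1 to 5, at 1.88 to 3.94 CPM (median 2.97) after AAV-GFP and at 0.398 to 3.49 CPM (median 2.63) after AAV-miR-34b/c. No TAA library reached the vehicle range. The changes were -1.23 ± 0.30 (adjusted p = 0.0126) and -1.57 ± 0.35 (adjusted p = 0.0061), and the exact two-sided permutation test gave its smallest p, 0.00126, in both (adjusted over all genes, 0.0678 and 0.046). Without vehicle replicate 4, the deepest vehicle library, the first change was -1.08 with an adjusted p of 0.0561. *Ccne1* (cyclin E1) was at 5.22 ± 2.33 CPM in vehicle, 2.21 ± 1.5 after AAV-GFP and 2.32 ± 1.52 after AAV-miR-34b/c, with changes of -1.24 ± 0.42 (adjusted p = 0.0548) and -1.17 ± 0.48 (adjusted p = 0.0845), the second passing at 0.0471 without AAV-miR-34b/c replicate 2. With limma-voom *Ccne1* was called in both, with changes of -1.38 (adjusted p = 0.0156) and -1.76 (adjusted p = 0.0253).

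*Cdk4* (ENSMUSG00000006728, chromosome 10, 127063534 to 127067920, plus strand), the cyclin D kinase, was at 23.8, 21.1, 18.6, 21.3 and 20.2 CPM in vehicle replicates 1 to 5, at 6.98 to 27.2 CPM (median 12.9) after AAV-GFP and at 8.81 to 18.8 CPM (median 12.4) after AAV-miR-34b/c. Vehicle libraries were close together and the AAV-GFP libraries were spread to both sides of them. The change after AAV-miR-34b/c was -0.70 ± 0.20 (adjusted p = 0.0183), and -0.65 (adjusted p = 0.0515) without vehicle replicate 1. After AAV-GFP it was -0.45 ± 0.27 (adjusted p = 0.278), and with limma-voom it was called at -0.73 (adjusted p = 0.0325). *Cdk2*, the cyclin E kinase, was at 8.41 ± 3.23, 9.57 ± 3.25 and 6.37 ± 1.49 CPM and was not called.

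Genes on the opposite strand overlap the 3′ ends of *Cdk4*, *Gins2* and *Ccne2*: *Tspan31* and *Gse1* cover all of the last 500 bases of *Cdk4* and *Gins2*, and *Ints8* covers 304 of the last 500 bases of *Ccne2*. The strand setting of the count is not given in the sources used here, so reads of each pair cannot be told apart with certainty. On average in the 3 groups, *Tspan31* was at 56.3, 67.9 and 48.9 CPM, and *Ints8* at 7.70, 5.42 and 4.25 CPM. Of the 40 genes, 13 overlap exons of another gene by at least 1 base, and 6 do so within their last 500 bases.

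In the growth-associated group, *Tubb5* (ENSMUSG00000001525, chromosome 17, 35833921 to 35838306, minus strand), a beta-tubulin of microtubules, was the most counted of the 40 genes. It was at 81.9, 70.2, 70.0, 62.3 and 57.0 CPM in vehicle replicates 1 to 5, 86.6 to 146 CPM (median 113) after AAV-GFP and 80.9 to 115 CPM (median 96.6) after AAV-miR-34b/c. All AAV-GFP and 6 of 7 AAV-miR-34b/c libraries were above the vehicle range. The changes were 0.74 ± 0.17 (adjusted p = 0.00869) and 0.51 ± 0.15 (adjusted p = 0.021). The second lost its call without vehicle replicate 4 (adjusted p = 0.0627) or 5 (adjusted p = 0.0609), and with scaling by library size alone (log2 fold change 0.38, adjusted p = 0.0916).

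*H2afz* (ENSMUSG00000037894, chromosome 3, 137864487 to 137866922, plus strand), which encodes histone H2A.Z, was at 30.4, 31.3, 41.2, 30.0 and 25.9 CPM in vehicle replicates 1 to 5, 20.7 to 40.6 CPM (median 24.7) after AAV-GFP and 10.5 to 22.3 CPM (median 18) after AAV-miR-34b/c. All AAV-miR-34b/c libraries were below the vehicle range. The change was -0.84 ± 0.21 (adjusted p = 0.00992) after AAV-miR-34b/c and -0.27 ± 0.20 (adjusted p = 0.365) after AAV-GFP. *Stmn1*, the microtubule-destabilizing stathmin, was at 6.96 ± 3.64, 12.8 ± 9.34 and 13.2 ± 6.11 CPM, with changes of 0.88 ± 0.40 (adjusted p = 0.141) and 0.91 ± 0.36 (adjusted p = 0.0781). AAV-GFP replicate 4 was at 33.8 CPM of *Stmn1*, and without it the first change was 0.42. The second change passed without vehicle replicate 1 (1.27, adjusted p = 0.0301) or AAV-miR-34b/c replicate 6 (1.05, adjusted p = 0.0422). It also passed with limma-voom (0.88, adjusted p = 0.0352). *Hmgb2*, a chromatin protein of dividing cells, was at 7.66 ± 5.14, 6.59 ± 3.23 and 10.3 ± 6.47 CPM and was not called. *Tubb5*, *H2afz* and *Hmgb2* belong to families with close copies, and how reads matching several copies were counted is not given in the sources used here.

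Among the calls of the 40 genes by edgeR, the exact two-sided permutation test adjusted over all genes was under 0.05 for *Pcna*, *Ccne2* and *Top2a* after AAV-miR-34b/c (0.046 each) and not for the others. Its adjusted p was 0.0678 for *Ccne2* and 0.0981 for *Top2a* after AAV-GFP, 0.137 after AAV-GFP and 0.0879 after AAV-miR-34b/c for *Birc5*, 0.0829 and 0.0643 for *Tubb5*, and, after AAV-miR-34b/c, 0.0808 for *Dut*, 0.0727 for *Cdk4* and 0.0643 for *H2afz*. Among the called cell cycle and replication genes outside the 40 that are named here, it was 0.046 for *Btg1*, *Lig1* and *Orc4* after AAV-miR-34b/c and at least 0.0567 otherwise. The permutation test takes libraries as independent, and whether the close pairs of libraries found in each group are so was not tested.

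Summed over the 16 mitosis genes, the level was 18 ± 7.26 CPM in vehicle (SD, n = 5), 63.2 ± 51.9 CPM after AAV-GFP and 42.3 ± 15.2 CPM after AAV-miR-34b/c (SD, n = 7 each). Without AAV-GFP replicate 4, at 175 CPM, the AAV-GFP mean was 44.5 ± 17.2 CPM (n = 6). Vehicle libraries lay between 8.87 and 27.9 CPM, and 6 of 7 libraries in each TAA group lay above them, the exceptions being AAV-GFP replicate 6 (18.2 CPM) and AAV-miR-34b/c replicate 6 (16.6 CPM). The 18 replication genes summed to 142 ± 14.7, 139 ± 21.8 and 112 ± 21.6 CPM, and 5 of 7 AAV-miR-34b/c libraries were below the lowest vehicle library (128 CPM). Mitosis genes took 6.13% to 14.5% of the counts of both sets in vehicle libraries (median 12.4%), 11.6% to 49.1% after AAV-GFP (median 27.6%) and 15.6% to 34.2% after AAV-miR-34b/c (median 28.6%). All AAV-miR-34b/c libraries and all AAV-GFP libraries but replicate 6 had a larger mitotic share than every vehicle library.

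**Figure D3:**
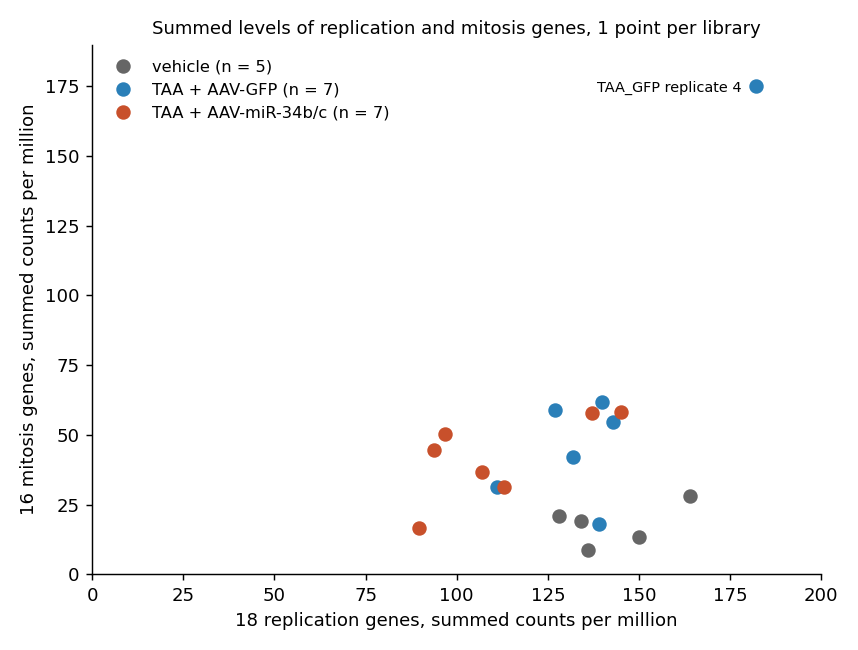
Summed CPM of the 16 mitosis genes (vertical axis) against that of the 18 replication genes (horizontal axis), 1 point per library, coloured by group. Vehicle libraries lie at the bottom (27.9 CPM of mitosis genes or less), AAV-GFP replicate 4 lies alone at 182 and 175 CPM, and 5 AAV-miR-34b/c libraries lie left of all vehicle libraries.

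What the miR-34b/c vectors changed beside TAA was asked by comparing AAV-miR-34b/c with AAV-GFP livers. None of 22 genes tested was called by edgeR, where 3.36% of all 9252 genes were (1.95% higher and 1.42% lower). At an unadjusted p under 0.05 there were 4 of 22, and 15.3% of all genes. DESeq2 also called none, whereas limma-voom with quality weights and edgeR with scaling by library size alone each called *H2afz* and *Tk1*, both lower after AAV-miR-34b/c. Of the 22 log2 fold changes 17 were negative, with a median of -0.25 against -0.01 over all genes, and without AAV-GFP replicate 4 the median was -0.13 over 23 genes tested. Among replication genes 10 of 11 were negative (median -0.41), and among mitosis genes 4 of 5 (median -0.45). Without AAV-GFP replicate 4 the median of the mitosis genes was 0.01 and that of the replication genes -0.19.

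The smallest adjusted p values in that comparison were those of *Tk1* and *H2afz*. *Tk1* was at 19.9 to 44.9 CPM (median 25.2) after AAV-GFP and at 10.1 to 24.3 CPM (median 20.9) after AAV-miR-34b/c, and 3 of 7 AAV-miR-34b/c libraries were below every AAV-GFP library. The change was -0.72 ± 0.24 (adjusted p = 0.108, exact two-sided permutation p = 0.0152 before adjustment). For *H2afz* the change was -0.58 ± 0.21 (adjusted p = 0.147, exact permutation p = 0.0122 before adjustment). The 5 nucleotide supply genes were all negative, between -0.77 ± 0.42 for *Rrm2* and -0.13 ± 0.33 for *Rrm1*, and *Cdk2* was at -0.60 ± 0.25 (adjusted p = 0.235). *Top2a* was at -0.45 ± 0.36, and at 0.01 without AAV-GFP replicate 4. *Birc5* was at -0.07 ± 0.45 and *Mki67* at 0.10 ± 0.57.

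The vectors carry miR-34b and miR-34c, and bases 2 to 8 of a microRNA, its seed, pair with sites in target transcripts. In the mature sequence below (RefSeq, GRCm38.p6) capitals mark the seed, and in the sites capitals mark the complementary CACTGCC. The site was searched in the longest annotated 3′ end of each of the 40 genes and found in 6 of 40 (15%), against 14.3% of 21020 genes. Those of the called genes *Ccne2* (chr4:11203194-11203200, plus strand) and *Tubb5* (chr17:35834077-35834083, minus strand), and of *Cdc6* (chr11:98922846-98922852, plus strand), are shown as examples. A match is not evidence of binding.
mmu-miR-34b-5p: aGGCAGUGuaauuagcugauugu
Ccne2: tctaaggagttaCACTGCCatt
Tubb5: gggtctttcagaCACTGCCcag
Cdc6: ctctgagatgcaCACTGCCcac

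Between the vector groups *Ccne2* was too low to be tested, with averages of 3.03 ± 0.787 CPM after AAV-GFP and 2.34 ± 1.08 CPM after AAV-miR-34b/c. *Tubb5* had a change of -0.24 ± 0.15 (adjusted p = 0.482). *Mcm5*, another of the 6, was at -0.04 ± 0.37 and *Hmgb2* at 0.58 ± 0.38. *Gins2* and *Cdc6*, the remaining ones, were too low to be tested, and without the filter on low counts they were at -1.53 ± 0.72 (adjusted p = 0.36) and 0.80 ± 0.98 (adjusted p = 0.735).

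Beyond the 40 genes, 120 further cell cycle genes were read from the same fits. In AAV-GFP against vehicle 9 of 65 tested were called (13.8%, with 12.7% of all genes), 7 higher and 2 lower. In AAV-miR-34b/c against vehicle 16 of 63 were called (25.4%, with 21.9% of all genes), 7 higher and 9 lower, and between the vector groups 0 of 63 were called by edgeR, 2 having an unadjusted p under 0.05. *Cdkn1a*, which encodes p21, was at 1.73, 3.62, 7.54, 7.75 and 11.3 CPM in vehicle replicates 1 to 5, at 18.3 to 162 CPM (median 43.2) after AAV-GFP and at 5.93 to 239 CPM (median 93.5) after AAV-miR-34b/c. All AAV-GFP libraries were above the vehicle range, whereas AAV-miR-34b/c replicates 5 (11.1 CPM) and 7 (5.93 CPM) were within it. The changes were 3.40 ± 0.50 (adjusted p = 0.00024) and 4.09 ± 0.76 (adjusted p = 0.00185), and the second was not called by limma-voom (adjusted p = 0.0505).

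The antiproliferative genes *Btg2* and *Btg1* were higher too. *Btg2* was at 13.0 ± 2.58 CPM in vehicle, 61.0 ± 25.5 after AAV-GFP and 44.9 ± 24.2 after AAV-miR-34b/c (SD, n = 5, 7 and 7), with changes of 2.22 ± 0.31 (adjusted p = 0.000128) and 1.78 ± 0.37 (adjusted p = 0.00383). *Btg1* changed by 1.58 ± 0.27 (adjusted p = 0.00122) and 1.15 ± 0.25 (adjusted p = 0.00553). Of the D-type cyclin genes, whose products start the G1 phase with CDK4 and CDK6, *Ccnd2* and *Ccnd3* were called and *Ccnd1* was not, and the difference between them was not tested.

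*Ccnd2* was at 24.7 ± 5.83, 45.9 ± 12.5 and 38.7 ± 7.77 CPM and *Ccnd3* at 25.0 ± 5.21, 45.8 ± 13.1 and 54.9 ± 16.7 CPM (SD, n = 5, 7 and 7). The changes of *Ccnd2* were 0.90 ± 0.22 (adjusted p = 0.0109) and 0.65 ± 0.20 (adjusted p = 0.0258), and the second lost its call without vehicle replicate 1, 4 or 5 or AAV-miR-34b/c replicate 3 or 4 (adjusted p from 0.0528 to 0.078), and with scaling by library size alone (0.51, adjusted p = 0.0813). Those of *Ccnd3* were 0.88 ± 0.22 (adjusted p = 0.014) and 1.13 ± 0.23 (adjusted p = 0.00307). *Ccnd1*, the most abundant of the 3 in reads, was at 79.9 ± 16.8, 97.9 ± 39.7 and 75.7 ± 35.6 CPM and was not called. Nor were *Cdk6*, *Cdkn1b* (p27) and *Cdkn2c* (p18) called by edgeR, while *Myc* was tested in AAV-GFP against vehicle alone (-0.50 ± 0.60, adjusted p = 0.612). *Cdk6* passed in AAV-GFP against vehicle without vehicle replicate 2 (0.90, adjusted p = 0.0362), which was at 50.4 CPM. Limma-voom called *Cdk6* higher after AAV-GFP (0.78, adjusted p = 0.0225) and after AAV-miR-34b/c (0.67, adjusted p = 0.0204). It called *Cdkn1b* lower after AAV-miR-34b/c (-0.59, adjusted p = 0.0177), as did edgeR with scaling by library size alone (-0.63, adjusted p = 0.0362).

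*Lig1*, the DNA ligase that joins Okazaki fragments, was called higher in both comparisons with vehicle, unlike the 40 genes' replication set. It was at 6.22, 7.91, 9.75, 5.33 and 6.46 CPM in vehicle replicates 1 to 5, at 12.0 to 38.4 CPM (median 21.7) after AAV-GFP and at 15.7 to 25.5 CPM (median 18.9) after AAV-miR-34b/c, with no overlap between vehicle and either group. The changes were 1.59 ± 0.29 (adjusted p = 0.00194) and 1.47 ± 0.22 (adjusted p = 0.000513). Other replication genes called in AAV-miR-34b/c against vehicle were lower. *Gmnn*, the inhibitor of CDT1, changed by -1.57 ± 0.34 (adjusted p = 0.00461), and the origin recognition genes *Orc2* and *Orc4* by -1.09 ± 0.30 (adjusted p = 0.0164) and -0.92 ± 0.24 (adjusted p = 0.0137). After AAV-GFP, *Gmnn* was at -0.93 ± 0.34 (adjusted p = 0.0736), and limma-voom called it (-1.05, adjusted p = 0.0333). *Orc4* lost its call without vehicle replicate 4 (adjusted p = 0.0658). Genes on the opposite strand cover all of the last 500 bases of *Orc2* (*Nif3l1*) and of *Ccnd1*, 446 of those of *Orc4* (*Acvr2a*) and 361 of those of *Ccnd3* (*Bysl*), so reads of these pairs also cannot be told apart with certainty. *Orc3*, *Orc5*, *Mcm10* and *Rnaseh2a*, named after their values were seen, were the other 4 called lower, with changes from -1.17 to -0.74, and these calls were kept in 6, 8, 10 and 11 of 12 fits that left out 1 library, in that order. In all, 8 of 24 such genes tested were called in AAV-miR-34b/c against vehicle and 1 of 25 in AAV-GFP against vehicle, with 21.9% and 12.7% of all genes, and the difference between those shares was not tested. *Mcm10* was at 117 to 185 CPM in vehicle and at 29 to 124 CPM after AAV-miR-34b/c. Replicates 5 (118 CPM) and 7 (124 CPM) of AAV-miR-34b/c were inside the vehicle range of *Mcm10*.

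*Wee1*, the kinase that holds CDK1 inactive, fell in both comparisons with vehicle. It was at 9.67, 24.7, 19.9, 12.1 and 14.9 CPM in vehicle replicates 1 to 5, at 2.33 to 10.1 CPM (median 4.33) after AAV-GFP and at 0.683 to 14.3 CPM (median 1.62) after AAV-miR-34b/c. Only AAV-GFP replicate 7 and AAV-miR-34b/c replicate 7 were inside the vehicle range. The changes were -1.76 ± 0.32 (adjusted p = 0.00194) and -1.93 ± 0.55 (adjusted p = 0.0209), and the second was at an adjusted p of 0.0561 without vehicle replicate 2. *E2f5*, a repressive E2F, was called lower after AAV-GFP (-1.14 ± 0.36, adjusted p = 0.0411), and the call was kept in 4 of 12 fits that left out 1 library.

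**Figure D4:**
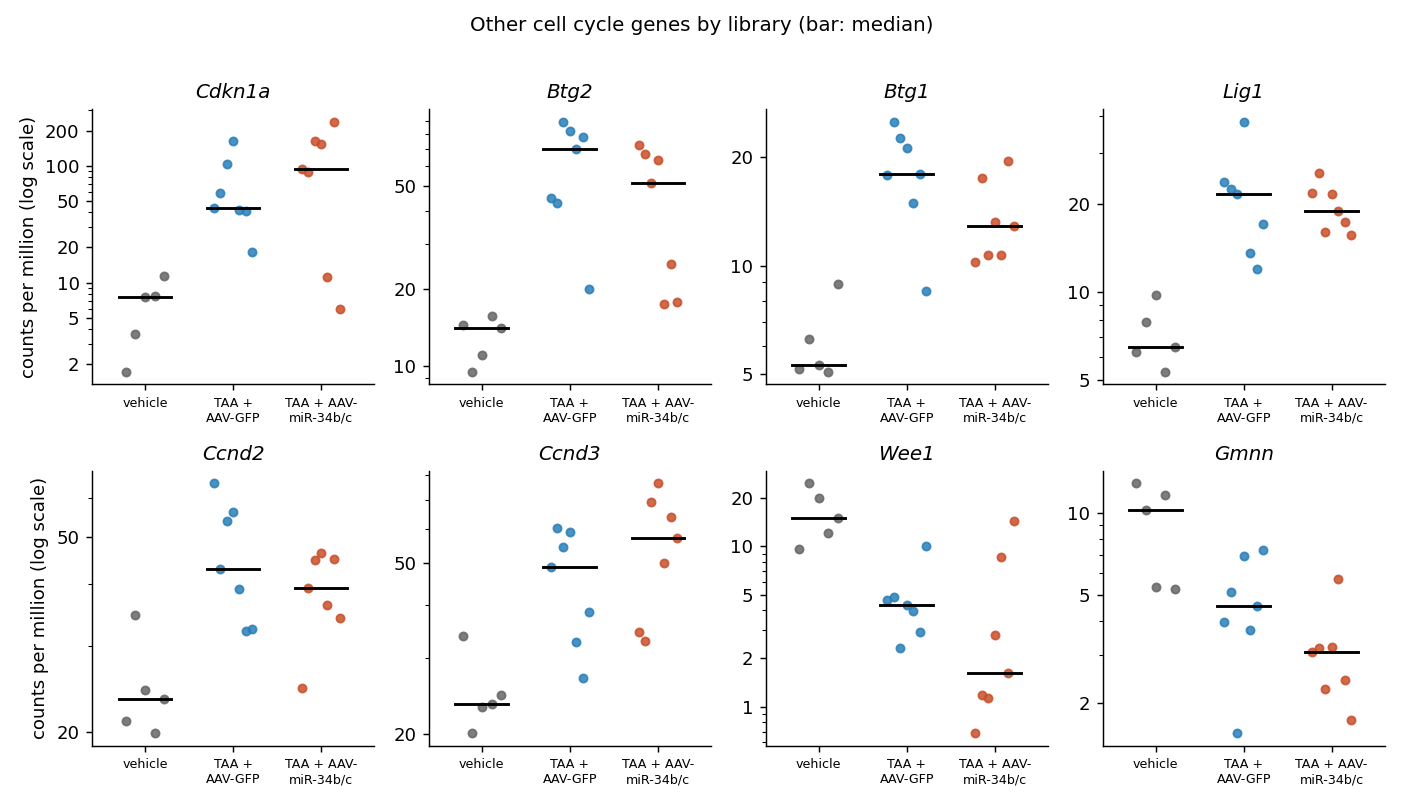
CPM on a log scale of 8 other cell cycle genes, 1 point per library, with the group median (bar). *Cdkn1a* of AAV-miR-34b/c replicates 5 and 7 lies within the vehicle range at 11.1 and 5.93 CPM, and the same libraries have 8.57 and 14.3 CPM of *Wee1*, the highest of their group.

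*Cdkn1a* and *Wee1* were also set beside genes of the circadian clock. The 11 clock output genes summed to 288 to 513 CPM in vehicle, 96.6 to 330 CPM after AAV-GFP and 90.8 to 459 CPM after AAV-miR-34b/c, where replicates 5 and 7 were at 459 and 451 CPM and the other 5 libraries at 141 CPM or less. Of 10 tested, 2 were called higher and 3 lower in AAV-GFP against vehicle (12.7% of all genes called), and 1 higher and 3 lower in AAV-miR-34b/c against vehicle (21.9%). Markers of other cells were also summed, and the group ranges of the macrophage, endothelial, erythroid and whole stellate cell lists overlapped. Neutrophil markers (6 genes, *Ly6g* at 0 in all vehicle libraries) summed to 16.8 to 80.5 CPM in vehicle, 13.7 to 73.3 CPM after AAV-GFP and 62.4 to 1920 CPM after AAV-miR-34b/c, with 3 of 3 tested called higher against vehicle and against AAV-GFP (12.2% and 1.95% of all genes). The 8 markers of activated stellate cells, none at 0 in any group, summed to 39.2 to 101, 96.9 to 227 and 49.4 to 90.7 CPM, with 3 of 6 called higher in AAV-GFP against vehicle (7.54% of all genes). Of these markers, 2 of 4 tested were called lower in AAV-miR-34b/c against AAV-GFP (1.42% of all genes), and 0 of 4 were called in AAV-miR-34b/c against vehicle. The 6 cholangiocyte markers, of which *Cftr* was at 0 in vehicle, summed to 18.2 to 40.9, 52.7 to 94.4 and 49.9 to 119 CPM. The 12 macrophage markers summed to 373 to 766, 347 to 535 and 457 to 677 CPM, the 8 endothelial markers to 215 to 261, 182 to 246 and 235 to 301 CPM, the 6 markers of stellate cells as a whole to 354 to 570, 327 to 476 and 248 to 527 CPM, and the 5 erythroid genes to 108 to 374, 163 to 805 and 191 to 396 CPM. The part of these markers in the changes of the cell cycle genes was not tested.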

How the data were processed

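RNA of 19 mouse livers was sequenced with a 3′ mRNA-seq kit in single-end reads of 100 bases, and the authors deposited 1 table of raw read counts per Ensembl gene. The provider's pipeline filtered, trimmed, aligned and counted the reads. STAR and the build mm10 are named in the submitters' processing notes. Annotation version, strand setting, multi-mapping and use of molecular identifiers are not given in the sources used here, so counts can include PCR duplicates, and counting limits cover counting error only. No other column of values was in the table. Symbols, positions and transcripts came from GENCODE vM21 (GRCm38), which named 31011 of the 31053 genes, and 13985 genes had no count.

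Counts were analysed with edgeR 4.0.16 in R 4.3.3 (TMM, filterByExpr with minimum count 10 and minimum total 15, quasi-likelihood test, Benjamini-Hochberg), fitting the 2 groups of a comparison alone and without covariates. SE was the log2 fold change divided by the square root of F. CPM used TMM factors over all libraries. Exact permutation tests used log2 CPM with a prior count of 2, and over 17068 genes with a count they gave 0, 468 and 0 genes at an adjusted p under 0.05 in AAV-GFP against vehicle, AAV-miR-34b/c against vehicle and AAV-miR-34b/c against AAV-GFP. The script was tested on simulated data. Alternatives were no filter, at least 10 counts in every library, DESeq2 1.42.0 and its size factors, library size alone, limma 3.58.1 voom with quality weights, all groups in a single fit, replicate numbers as a block, close libraries summed, and each library left out. Reading results without AAV-GFP replicate 4 on its own was chosen after seeing the data.

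The members and lists were chosen with earlier results of these data known. Named were all 40 genes, 9 set regulators (*Ccnd1*, *Ccnd2*, *Ccnd3*, *Cdk6*, *Cdkn1a*, *Cdkn1b*, *Cdkn2c*, *Wee1*, *Myc*) and, per comparison and direction, the 3 other cell cycle genes with the smallest adjusted p among those called. Pairs of libraries of a group were close (coefficient of variation beyond counting noise under 0.2) in vehicle (replicates 1 and 4, 3 and 5), AAV-GFP (1 and 2) and AAV-miR-34b/c (1 and 2, 3 and 4, 5 and 7). The lowest coefficient was 0.0812, for AAV-miR-34b/c replicates 3 and 4. All were kept as separate samples because each library is labelled as a separate biological replicate. Variation beyond counting noise does not by itself show that the libraries of a pair are independent, which was not tested. Lymphocyte markers are not reported here.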

Additional observations from a re-analysis of the deposited data

Results flagged for a closer look

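In 8 of 132 groups of values examined, the extreme library lay farther from its neighbour than Dixon's 95% limit allows, where chance flags about 1 in 20 groups (6.6 here). AAV-GFP replicate 4 was high in the summed level of the 16 mitosis genes, at 175 CPM with the next library at 61.7 CPM, and in log2 CPM of *Stmn1* (5.10, next 3.57). AAV-miR-34b/c replicate 6 was low in log2 CPM of *Mcm3* (2.40, next 3.02), *Mcm6* (0.31, next 1.38) and *Cdc20* (0.71, next 1.94). AAV-miR-34b/c replicate 7 was low in log2 CPM of *Mcm7* (3.52, next 4.53). Among vehicle libraries, replicate 4 was high in log2 CPM of *Cdk1* (2.63, next 2.03) and replicate 2 in that of *Cdk6* (5.67, next 4.55).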

How the results depend on the processing

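Counts of genes called changed with the setting as follows. In AAV-GFP against vehicle (1212 genes, 4 of the 40), summing close libraries gave 227 genes and 1 of the 40 (*Top2a*). Limma-voom gave 2687 genes and 6 of the 40 (3 higher and 3 lower, against 3 and 1). Requiring 10 counts in every library gave 1 of the 40, since fewer genes were tested. In AAV-miR-34b/c against vehicle (2037 genes, 8 of the 40), summing close libraries gave 331 genes and 2 of the 40 (*Ccne2*, *Top2a*). Limma-voom gave 3839 genes and 12 of the 40 (4 higher and 8 lower, against 3 and 5). With 10 counts in every library, 5 of the 40 were called. In AAV-miR-34b/c against AAV-GFP (311 genes, 0 of the 40), summing gave 87 genes, DESeq2 572, library size alone 624 and limma-voom 813, the last pair with 2 of the 40. Summing leaves 3, 6 and 4 samples in the groups.

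Leaving out 1 library gave 689 to 1859, 1267 to 2695 and 209 to 344 genes in the 3 comparisons, and 3 to 6, 7 to 10 and 0 of the 40. In AAV-GFP against vehicle the count moved by over 1.5 times without vehicle replicate 1 (728) or 4 (689) or AAV-GFP replicate 3 (806) or 6 (1859), and in AAV-miR-34b/c against vehicle without vehicle replicate 1 (1328) or 4 (1267). Library size alone shifted the median log2 fold change of all genes to -0.13 in AAV-miR-34b/c against vehicle (730 higher, 1616 lower, against 1131 and 906) and to -0.20 against AAV-GFP (119 and 505, against 180 and 131), and gave 838 and 406 in AAV-GFP against vehicle (against 718 and 494).

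Replicate numbers did not pair the samples (correlations of deviations from -0.284 to 0.277, and not every sample correlated best with its own number), and a replicate block gave 3136, 945 and 142 genes and 8, 4 and 0 of the 40. With it *Ccne1*, *Cdk4*, *Cdk1*, *Cdc20* and, outside the 40, *Cdk6* and *Gmnn* were called after AAV-GFP. After AAV-miR-34b/c *Pcna*, *Dut*, *Cdk4*, *Tubb5*, *Ccnd2*, *Gmnn*, *Orc2* and *Orc4* were not called with it (adjusted p from 0.0551 to 0.127). Their log2 fold changes were then -0.94, -0.80, -0.74, 0.46, 0.63, -1.34, -1.08 and -0.83 in that order.

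Of 2567 gene values under alternatives, 2457 kept their side of the threshold, 73 of them with a change of sign while not called. A further 75 lost their call and 31 gained it. The other 4 were called in neither fit, but changed sign with a shift larger than the SE of the main fit. These were *Hmgb2* in AAV-GFP against vehicle without vehicle replicate 4 (0.31, range -0.38 to 0.31 over the libraries left out), *Cdk1* in AAV-miR-34b/c against vehicle with limma-voom (-0.34), *Top2a* between the vector groups without AAV-GFP replicate 4 (0.01, range -0.59 to 0.01) and *Cdkn1a* there with limma-voom (-0.17). Summing close libraries ended the calls of *Birc5* (adjusted p = 0.0687 and 0.0836), *Tubb5*, *Pcna*, *Dut*, *Cdk4* and *H2afz*, and of *Ccne2* after AAV-GFP (0.0687), with log2 fold changes of 2.32 and 2.11, 0.76 and 0.55, -0.98, -0.86, -0.69, -0.91 and -1.24 in that order. Outside the 40 it ended those of *Ccnd2* after AAV-GFP (0.119) and AAV-miR-34b/c (0.184), of *Ccnd3* (0.089) and *E2f5* (0.124) after AAV-GFP, and of *Wee1* (0.0848), *Orc2* (0.0866), *Orc4* (0.0891), *Btg1* (0.0531) and *Btg2* (0.0532) after AAV-miR-34b/c. The log2 fold changes were then 0.77, 0.60, 0.89, -1.12, -2.13, -1.06, -0.97, 1.20 and 1.74 in that order. *Cdk4* was also lost with all groups in a single fit (0.0581). The cause was not tested. The filter on low counts left 12 of 16 mitosis genes untested against vehicle in each TAA group. Of the 18 replication genes it left out 3 in AAV-GFP and 5 in AAV-miR-34b/c against vehicle.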
